A study of Mus musculus with 9 samples.

Results

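The analysis covered 10 alpha and beta tubulin genes of the 27179 genes in the count table: the beta genes Tubb2a, Tubb2b, Tubb3, Tubb4b, Tubb5 and Tubb6, and the alpha genes Tuba1a, Tuba1b, Tuba1c and Tuba4a. The family was chosen by the fold change of Tubb2a, which in earlier results of the same 9 libraries was among the largest of the genes called between the genotypes. The genotype differences of the 10 genes are therefore given as a description, with no test. RNA was sequenced from frozen liver sections of female mice after 12 weeks of a cholesterol-rich high-fat diet (HFD), begun at 8 weeks of age. There were 5 libraries from Apoe-/- mice, here called WT, and 4 from Mif-2-/-Apoe-/- mice, here called DKO. All 9 libraries thus come from mice that lack Apoe and were fed the HFD, and the genotypes differ in Mif-2, which the mouse annotation lists as Ddt and which is deleted in every cell type. Lysates of 3 to 4 sections were combined for each library. The labels number the libraries within a genotype without saying that each is a separate animal, so the SDs measure the spread between libraries. The published description gives fewer Apoe-/- mice for this experiment than there are WT libraries, and does not say how the additional library arose; none was left out here.

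Alpha- and beta-tubulin form the dimers from which microtubules are built, and the several isotypes of each are encoded by separate genes with closely similar coding sequences. The isotypes differ mainly in the C-terminal tail, which lies on the outside of the microtubule and is where motors, associated proteins and tail-modifying enzymes bind. In hepatocytes, microtubules carry secretory cargo such as lipoproteins and position lipid droplets and other organelles. Tubulin mRNA levels are also set after transcription: free tubulin dimers lead to decay of tubulin mRNAs that are being translated, through the first residues of the growing chain.

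The ends of the coding sequences are shown because they separate most of the isotypes. Each is the last 60 coding bases before the stop codon, read 5′ to 3′ from the reference mouse genome (GRCm38). In the beta genes, capitals mark bases that differ from, or have no partner in, the Tubb2a stretch.
Tubb2a: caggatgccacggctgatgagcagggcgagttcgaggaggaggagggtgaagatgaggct
Tubb2b: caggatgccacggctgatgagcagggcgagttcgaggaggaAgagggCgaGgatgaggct
Tubb4b: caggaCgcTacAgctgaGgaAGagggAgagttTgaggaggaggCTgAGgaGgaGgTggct
Tubb5: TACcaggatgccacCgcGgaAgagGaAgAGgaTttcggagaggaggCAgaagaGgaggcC
Tubb3: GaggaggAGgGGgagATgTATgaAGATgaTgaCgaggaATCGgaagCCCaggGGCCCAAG
Tubb2b held 3 such bases, Tubb4b and Tubb5 15 each, and Tubb3, the isotype best known from neurons, 31. The 3 bases of Tubb2b leave the encoded residues the same as in Tubb2a, so this stretch separates that pair in bases only.

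For the alpha genes the stretch of Tuba4a is shown, since it was the main alpha tubulin of these libraries.
Tuba4a: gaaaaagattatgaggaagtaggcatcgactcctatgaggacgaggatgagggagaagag
It ends in a glutamate codon (gag). Most alpha-tubulins are made with a terminal tyrosine, the residue that the detyrosination cycle removes and adds back, and Tuba4a is made without it.

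The opening of the coding sequence is shown because it is the part that the decay of translated tubulin mRNA reads. The first 12 coding bases were as follows.
Tubb2a: atgcgcgagatc
Tubb2b: atgcgagagatc
Tubb4b: atgagggagatc
Tubb5: atgagggaaatc
Tuba4a: atgcgcgagtgc
The beta genes shown here shared the bases gagatc or gaaatc after the first pair of codons, and Tuba4a had gagtgc there.

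Because the isotypes are so alike, how much of each transcript can be told from other genes was measured first. Every stretch of 100 bases, the read length, of each transcript was looked up in all other annotated transcripts. The sequencing was paired, so a fragment can also be placed by its other read, which single windows leave out. Tubb2a (chromosome 13, 34074278 to 34078007, minus strand, 4 exons) had 63.0% of its windows in no other gene, and 36.0% in Tubb2b. Its neighbor Tubb2b (chromosome 13, 34127008 to 34130354, minus strand) shares 96.5% of aligned coding positions with it, and they differ at 47 positions. The other beta genes of the group were between 83.2% and 84.6% identical to Tubb2a in coding sequence. Tubb3, Tubb5 and Tubb6 had no window in another gene. In Tubb4b (chromosome 2, 25222160 to 25224702, minus strand), 69.4% of windows were its own, and the pseudogene Tubb4b-ps1 held 27.4%.

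The Tuba1 genes were the least separable. Only 28.2% of the windows of Tuba1a, 19.9% of Tuba1b and 46.4% of Tuba1c were found in no other gene, and the 3 were between 97.1% and 98.3% identical to each other. Their counts are therefore uncertain one by one. Tuba4a (chromosome 1, 75214972 to 75219294, minus strand) was unique over its whole coding part, and 26.8% of its windows fell in its overlap with Stk16, a kinase gene. How reads that match several genes were counted, and whether strand was used, is not given in the sources used here.

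**Figure D1:**
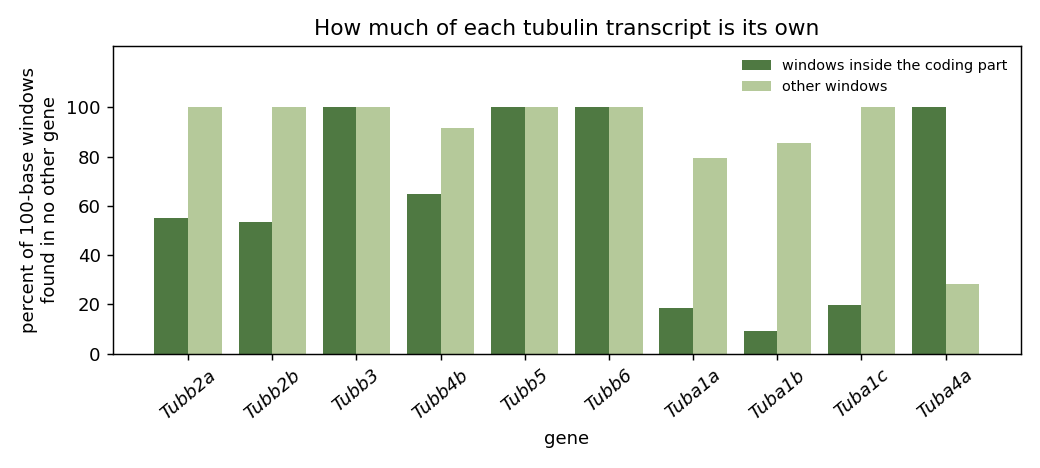
Percent of 100-base windows of each tubulin transcript that occur in no other annotated gene, inside the coding part (dark) and in the other windows (light). In Tubb2a 54.96% of coding windows were its own, against 18.5% in Tuba1a and 9.07% in Tuba1b.

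Total counts ranged from 2318148 to 10764182 per library. Ddt, the deleted gene, had 1205 to 4820 counts in the WT and 6 to 27 in the DKO libraries. The libraries differed in their hepatocyte RNA within each genotype. The 10 hepatocyte markers, of which none was at 0 in all libraries, summed to 182000 to 261000 CPM (counts scaled to equal library sizes by the TMM method) in WT replicates 1 to 4 and to 78600 in WT replicate 5. They summed to 238000 in DKO replicate 2 and to 72300 to 113000 in the other DKO libraries. In bulk tissue, fewer cells of a type and less RNA per cell cannot be told apart. Across all 16860 genes tested, the median log2 fold change of WT over DKO was -0.17 and 43.5% of genes were higher in WT.

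The liver sections expressed few of the tubulin genes strongly. Per kilobase of transcript, Tuba4a had the highest level in WT, 303 ± 101 CPM per kb (SD, n = 5), followed by Tubb4b at 209 ± 71.3 and Tubb2a at 199 ± 72.8. The order of Tubb4b and Tubb2a varied between the WT libraries. Tuba4a was above both within every library of both genotypes, although its range across the WT libraries overlapped theirs. Tubb6 followed at 30.1 ± 16.4 and Tubb5 at 12.7 ± 3.98 CPM per kb, and the other 5 genes were below 3 CPM per kb on average. In DKO the order began with Tuba4a at 100 ± 40.8 CPM per kb (SD, n = 4) and Tubb4b at 54.6 ± 14.8. Tubb6 at 27.7 ± 26.2 then stood beside Tubb2a at 24.1 ± 9.63, and the order of these 2 varied between the DKO libraries. In level per kilobase, Tubb2a was thus next to Tubb4b in WT and next to Tubb6 in DKO.

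**Figure D2:**
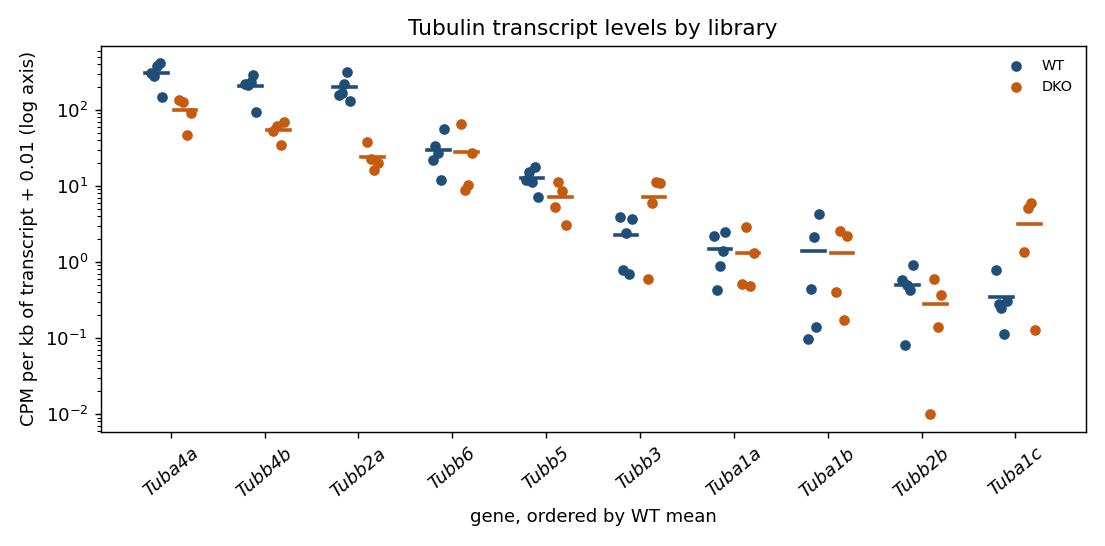
Level of each tubulin gene in every library, in CPM per kb of transcript plus 0.01 on a log axis, with WT in blue and DKO in orange and the group mean as a bar. Tubb2a, Tubb4b and Tuba4a are separated between the genotypes, and the other 7 genes overlap.

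Tubb2a, a beta isotype of many tissues, was the member that differed most. Its CPM in WT replicates 1 to 5 was 255.5, 271.4, 356.3, 506.2 and 209.7. In DKO replicates 1 to 4 it was 61.0, 36.4, 25.7 and 32.0 CPM. The lowest WT library was above the highest DKO library, and these values rest on 759 to 2511 counts in WT and 64 to 300 in DKO. The level was 320 ± 117 CPM (SD, n = 5) in WT and 38.8 ± 15.5 CPM (SD, n = 4) in DKO. The fitted log2 fold change was 3.04 (standard error 0.39), which is 8.23-fold higher in WT. Leaving out any single library kept it between 2.89 and 3.35.

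Its near paralog Tubb2b was close to absent from the counts, with 1 to 9 counts in the WT and 0 to 3 in the DKO libraries. Tubb2a thus made up 97.0% or more of the counts of the pair in every library. Adding the Tubb2b counts to Tubb2a left the log2 fold change of the sum at 3.03. A pseudogene of the same family, Tubb2a-ps2, had 1 count in WT replicate 3 and 0 elsewhere. The shared windows between Tubb2a and Tubb2b were therefore matched by very few reads assigned to Tubb2b in either genotype.

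Tubb4b, another widely expressed beta isotype, also stood higher in WT. It was at 345.6, 342.0, 367.1, 466.0 and 151.8 CPM in WT replicates 1 to 5. In DKO replicates 1 to 4 it was at 84.2, 97.1, 55.9 and 111.6 CPM. The genotypes did not overlap, although WT replicate 5 lay closer to the DKO libraries than to the other WT libraries. The log2 fold change was 1.94 (standard error 0.36), 3.84-fold.

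Tuba4a, the alpha isotype whose tail lacks the encoded tyrosine, was the main alpha tubulin. Its CPM in WT replicates 1 to 5 was 645.6, 581.2, 784.5, 856.9 and 311.3. In DKO replicates 1 to 4 it was 286.9, 265.2, 97.8 and 190.7. The lowest WT and the highest DKO library lay close together without overlapping. The log2 fold change was 1.60 (standard error 0.39), 3.03-fold. Stk16, which shares its 3′ end, was at 114 ± 51.6 CPM in WT (SD, n = 5) and 122 ± 43.8 CPM in DKO (SD, n = 4), with a log2 fold change of -0.09 (standard error 0.40; edgeR adjusted p = 0.945).

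The other members gave no separation. Tubb5, the beta isotype of dividing cells, was at 33.5 ± 10.5 CPM in WT (SD, n = 5) and 18.8 ± 9.73 CPM in DKO (SD, n = 4), with a log2 fold change of 0.85 (standard error 0.51). Tubb6 was at 52.5 ± 28.7 against 48.3 ± 45.7 CPM, and its 2 highest libraries were 1 of each genotype: DKO replicate 1 at 113.5 and WT replicate 5 at 97.4 CPM. Its log2 fold change of 0.11 (standard error 0.59) ranged from -0.24 to 0.97 when each library was left out, so its direction was not fixed. The log2 fold change of Tubb3 was -1.63 (standard error 0.93), and its level was 3.98 ± 2.65 CPM in WT and 12.4 ± 8.63 CPM in DKO, and DKO replicate 1, at 1.02 CPM, was below every WT library.

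The Tuba1 genes had at most 25, 34 and 47 counts for Tuba1a, Tuba1b and Tuba1c in any library. Tuba1a and Tuba1b, the common alpha isotypes of brain and of dividing cells, had log2 fold changes of 0.22 (standard error 1.05) and 0.08 (standard error 1.31). Both turned negative in some fits that left out 1 library. For Tuba1c the log2 fold change was -3.15 (standard error 1.18). It reached 18 counts in DKO replicate 2 and 47 in DKO replicate 3 but had 1 count in DKO replicate 4, within the WT range of 1 to 11.

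**Figure D3:**
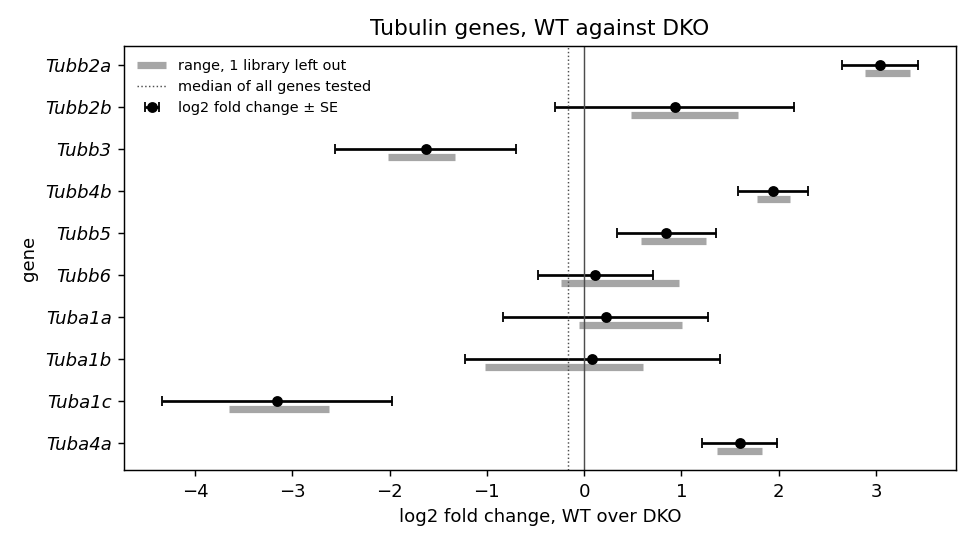
Fitted log2 fold change of WT over DKO for each tubulin gene (points, with the standard error as bars), with the range over the 9 fits that each left out 1 library in gray and the median of all genes tested dotted. Tubb2a, Tubb4b and Tuba4a have the smallest standard errors and lie to the right, from 1.60 to 3.04.

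All 10 genes passed the filter on low counts, and 8 had a log2 fold change above 0, with a median of 0.54. edgeR, with an adjusted p under 0.05 over all genes, called 1 of the 10, Tubb2a, where it called 0.13% of all genes in either direction and 0.0593% as higher in WT. DESeq2 called 3, Tubb2a, Tubb4b and Tuba4a, where it called 2.35% of all genes as higher in WT. The genotypes did not overlap for the same 3 genes, where 2.24% of all genes were separated in that direction and 2.03% in the other. Nothing is read from these counts, since the rule used this contrast. The number of members called depends on the settings: edgeR also called Tubb4b with RLE or TMMwsp scaling, with no filter on low counts and with filterByExpr. In the 9 fits that each left out 1 library, edgeR called Tubb2a in 9, Tubb4b in 2 and Tuba4a in 1.

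The beta pool is described by its composition and its size. Tubb2a was chosen by its difference between the genotypes, which enters both, so neither was tested. Of the summed level per kilobase of the 6 beta genes, Tubb2a made up 38.4, 39.0, 45.0, 49.4 and 44.5% in WT replicates 1 to 5. In DKO replicates 1 to 4 it made up 23.5, 20.6, 19.7 and 15.3%. The mean share was 43.3 ± 4.58% (SD, n = 5) in WT and 19.8 ± 3.41% (SD, n = 4) in DKO, and the ranges did not overlap. The share of Tubb4b was 45.3 ± 7.65% in WT and 46.1 ± 10.5% in DKO, and its ranges overlapped. Tubb6 took 7.91 ± 6.58% in WT and 20.3 ± 14.2% in DKO, with 40.3% in DKO replicate 1. The ratio of Tubb2a to Tubb4b per kilobase, which needs no scaling between libraries, was 0.736 to 1.37 in WT and 0.285 to 0.721 in DKO. The lowest WT and the highest DKO ratio nearly met.

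The summed beta level was 454 ± 126 CPM per kb in WT (SD, n = 5) and 121 ± 33.9 CPM per kb in DKO (SD, n = 4). Without Tubb2a and Tubb4b, the other 4 beta genes summed to 45.6 ± 14.1 and 42.2 ± 20.1 CPM per kb, which did not differ beyond their spread. The summed alpha level was 307 ± 99.3 CPM per kb in WT and 106 ± 40.7 CPM per kb in DKO. Tuba4a made up 98.6 ± 1.72% of the alpha pool in WT and 93.6 ± 4.76% in DKO. The alpha sum relative to the beta sum was 0.530 to 0.766 in WT and 0.656 to 1.25 in DKO, ranges that overlapped.

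**Figure D4:**
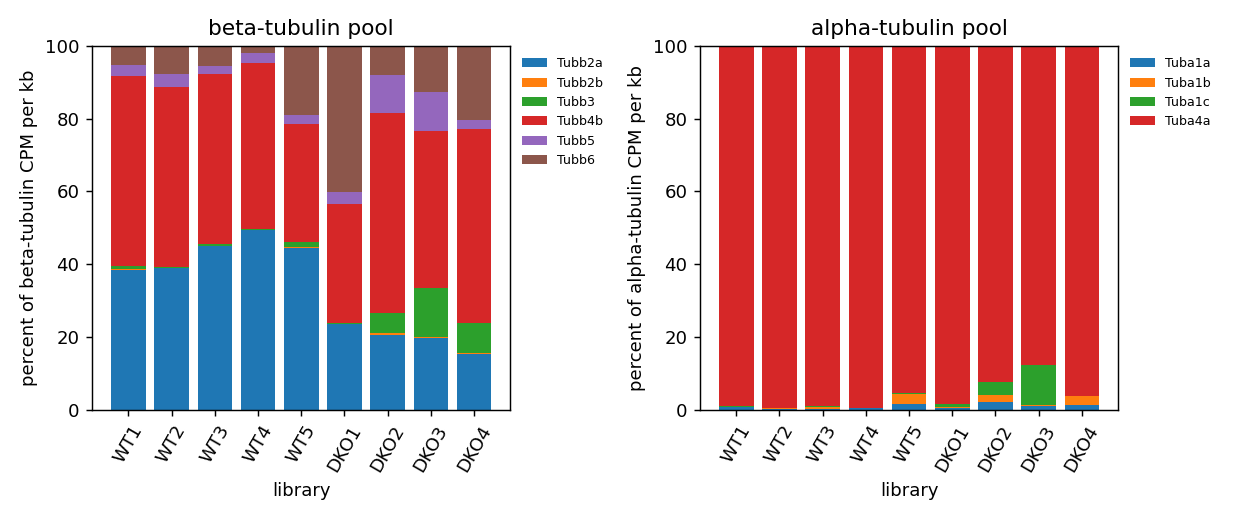
Share of each gene in the summed level per kb of the 6 beta (left) and 4 alpha (right) tubulin genes, in percent, by library. Tubb2a (blue, left) takes 38.4 to 49.4% in the WT and 15.3 to 23.5% in the DKO libraries, and Tuba4a (red, right) 87.6% or more in all 9.

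The levels were also set against the hepatocyte markers of each library. Tubb2a had 14.1, 14.3, 17.2, 19.4 and 26.7 counts per 10000 hepatocyte marker counts in WT replicates 1 to 5. In DKO replicates 1 to 4 it had 5.99, 1.53, 3.55 and 2.83. The genotypes did not overlap on this scale, and WT replicate 5, with few hepatocyte marker counts, had the highest value. Since Tubb2a was chosen by its difference between the genotypes, this is a description only. Tubb4b was at 18.4 ± 0.734 in WT (SD, n = 5) and 7.49 ± 2.44 in DKO (SD, n = 4), with a WT range of 17.7 to 19.3. Tuba4a was at 35.3 ± 3.67 in WT and 17.4 ± 7.55 in DKO, and its ranges were 30.6 to 39.6 and 11.1 to 28.2.

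DKO replicate 2, whose hepatocyte markers were as high as in most WT libraries, had 36.4 CPM of Tubb2a. WT replicate 5, whose hepatocyte markers were below those of 3 of the 4 DKO libraries, had 209.7. Without WT replicate 5, DKO replicate 1 and DKO replicate 3, the libraries with the smallest share of counts in the 10 most abundant genes, the log2 fold change of Tubb2a was 3.37. Of the other cell types, the 7 neuron markers summed to 17.8 to 45.7 CPM in WT and 17.5 to 52.2 CPM in DKO. The 6 cholangiocyte, 6 endothelial and 6 macrophage markers likewise overlapped between the genotypes. None of these lists had a marker at 0 in all libraries. The part of these cell types, and of the hepatocyte content, in the tubulin levels was not tested.

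**Figure D5:**
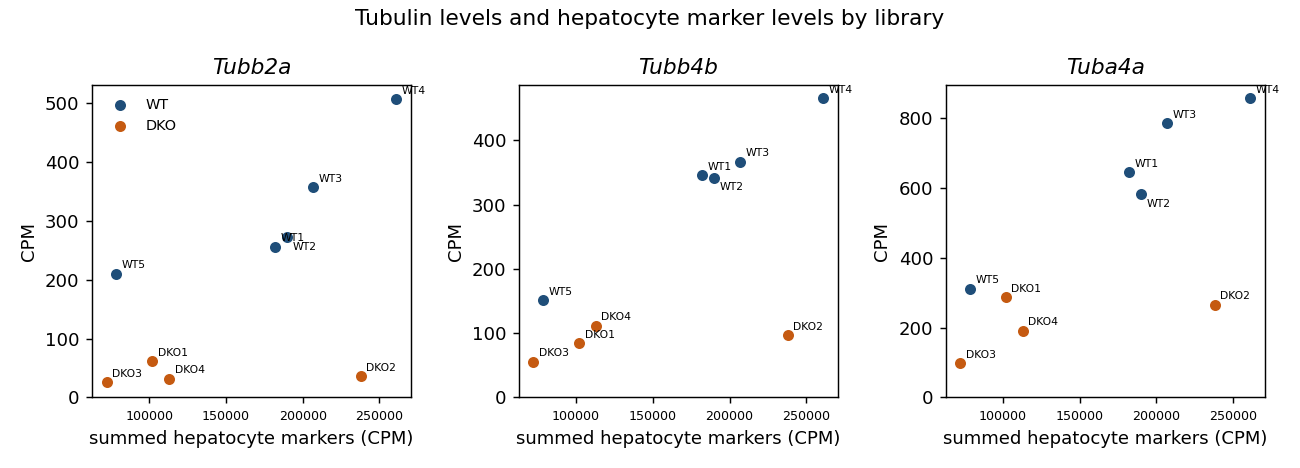
CPM of Tubb2a, Tubb4b and Tuba4a against the summed CPM of the 10 hepatocyte markers, 1 point per library, WT in blue and DKO in orange. DKO2, at 238000 CPM of markers, has 36.4 CPM of Tubb2a, and WT5, at 78600, has 209.7.

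The genes that serve tubulin were examined in 8 lists of 140 genes, 132 of them tested, taken from general knowledge of microtubule biology. edgeR called none of them, where it called 0.13% of all genes in either direction, so the absence of a call in any of these lists says little. Without adjustment, 7 were higher and 5 lower in WT at a p under 0.05, 5.3% and 3.79% of the genes tested, where 6.52% and 8.99% of all genes were. DESeq2 called 1 in each direction, where it called 2.35% of all genes as higher in WT and 2.58% as higher in DKO. The lists had a median log2 fold change of -0.16 together, near the -0.17 of all genes.

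Among the folding machinery, none of 8 tubulin cofactor and 13 chaperonin or prefoldin genes tested was called. Of the chaperonin and prefoldin genes, which fold newly made tubulin and actin, 10 had a value higher and 3 lower in WT, with a median log2 fold change of 0.44. Cct3, a chaperonin subunit, was at 235 ± 78.7 CPM in WT and 104 ± 50.2 CPM in DKO, a log2 fold change of 1.18 (standard error 0.38; edgeR adjusted p = 0.175). Pfdn5, a prefoldin subunit, had 0.88 (standard error 0.34; edgeR adjusted p = 0.237), and Cct7 0.52 (standard error 0.37; edgeR adjusted p = 0.533). Tbcb, a cofactor that binds alpha-tubulin, had 1.14 (standard error 0.52; edgeR adjusted p = 0.305), Arl2, a small GTPase of the same cofactor system, 0.87 (standard error 0.41; edgeR adjusted p = 0.323), and Tbcc 0.44 (standard error 0.47; edgeR adjusted p = 0.706).

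Among 23 genes tested for enzymes that modify the tubulin tail or lysine, 11 had a value higher and 12 lower in WT. For Svbp, the partner of the enzymes that remove the terminal tyrosine, the log2 fold change was 1.39 (standard error 0.54; edgeR adjusted p = 0.246). The deacetylases Hdac6 and Sirt2 had -1.001 (standard error 0.54; edgeR adjusted p = 0.388) and -0.25 (standard error 0.31; edgeR adjusted p = 0.757). Agbl2, a carboxypeptidase, had -3.28 (standard error 1.70; edgeR adjusted p = 0.373).

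Of 27 microtubule-associated and 32 motor genes tested, DESeq2 called 1 each. Of the 132 genes tested in all the lists, the genotypes did not overlap for 4 higher in WT and 2 higher in DKO. Of all genes tested, 2.24% and 2.03% were separated in these directions, so nothing is read from a lack of overlap here. Map7d1, a microtubule-associated protein, was at 109.7 to 214.6 CPM in WT and 33.6 to 92.9 CPM in DKO, and the genotypes did not overlap. The fitted log2 value was 1.32 higher in WT (standard error 0.36; adjusted p = 0.146 with edgeR, 0.0106 with DESeq2). Kif5a, a kinesin heavy chain, was at 2.82 to 18.5 CPM in WT and 25.8 to 47.1 CPM in DKO, again without overlap. The fitted log2 change was -1.97 (standard error 0.59; adjusted p = 0.166 with edgeR, 0.0105 with DESeq2). Dynll2, a dynein light chain, had 1.27 (standard error 0.40; edgeR adjusted p = 0.174), and Camsap2, which binds microtubule minus ends, had -2.73 (standard error 0.97; edgeR adjusted p = 0.210). The abundant Dync1h1, Dctn2 and Mapre3 had -0.35 (standard error 0.31), 0.20 (standard error 0.29) and 0.44 (standard error 0.39), with edgeR adjusted p values of 0.629, 0.786 and 0.628.

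Of 7 other tubulin genes tested, none was called, and 1 had a value higher in WT. Tubg1, the gamma-tubulin that starts microtubules, was at 65.7 ± 12.5 CPM in WT and 76.4 ± 21.7 CPM in DKO, with a log2 fold change of -0.22 (standard error 0.33; edgeR adjusted p = 0.797). Tubb4a, a brain isotype, had -0.06 (standard error 0.65; edgeR adjusted p = 0.978), Tubg2 -1.81 (standard error 1.17; edgeR adjusted p = 0.487), and Tubb1, the platelet isotype, -3.41 (standard error 1.61; edgeR adjusted p = 0.327) on at most 25 counts. Of the 8 nucleation genes, Tubgcp6, a subunit of the gamma-tubulin ring complex, had -1.59 (standard error 0.63; edgeR adjusted p = 0.258). Its partner Tubgcp3 had -0.28 (standard error 0.49; edgeR adjusted p = 0.831), Mzt2 0.43 (standard error 0.53; edgeR adjusted p = 0.749) and Nedd1 -1.11 (standard error 1.11; edgeR adjusted p = 0.675).

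Genes of dividing cells, in which microtubules build the spindle, were low throughout. The 15 genes summed to 24.4 to 102 CPM in WT and 68.7 to 155 CPM in DKO, ranges that overlapped. Of 14 tested, 12 had a value lower in WT, and none was called. For Mki67 the log2 fold change was -2.57 (standard error 0.99; edgeR adjusted p = 0.242), Ccna2 -3.30 (standard error 1.28; edgeR adjusted p = 0.246) and Birc5 -0.84 (standard error 1.17; edgeR adjusted p = 0.783).

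The genes whose pattern over the 9 libraries was most like that of Tubb2a were looked for among 8152 genes that averaged 10 CPM or more. Likeness was measured as the root mean square difference of log2 values after each gene was centered on its own mean. This keeps the difference between the genotypes by which Tubb2a was chosen. Near genes are therefore mostly genes with a similar difference, and the ranks largely restate it. The nearest were Clpx, a mitochondrial protease subunit (0.47), Ethe1, an enzyme of mitochondrial sulfide oxidation (0.48), Spring1, a regulator of SREBP processing (0.48), Apoa4, an apolipoprotein (0.51), and Sdf2l1, of the endoplasmic reticulum (0.54). Apoa4 was at 3204, 3198, 3241, 4318 and 1380 CPM in WT replicates 1 to 5 and at 658.6, 523.6, 275.6 and 800.4 CPM in DKO replicates 1 to 4. Like Tubb2a, it was high in each WT library and low in each DKO library. Tubb4b was the 22nd nearest gene (0.70) and Tuba4a the 36th (0.77), while Tubb5 ranked 1100th and Tubb6 3639th. The members nearest to each other were Tubb4b and Tuba4a, at 0.32.

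The promoters of the 3 members that were separated between the genotypes are shown because their transcripts stood high together in WT. Each runs from 250 bases before to 50 after the RefSeq start (GRCm38.p6), 5′ to 3′ on the strand of the gene, and capitals mark motifs found on either strand. The TATA box was searched as TATAAA, which 13.6% of 32851 mouse promoter windows of this kind held. The CCAAT box, searched by those letters, was in 37.4% of them. The GC box was searched as GGGCGG and was in 35.7%. The E-box was searched as CACGTG and was in 7.15%.
Tubb2a, chr13:34077959-34078258, minus strand: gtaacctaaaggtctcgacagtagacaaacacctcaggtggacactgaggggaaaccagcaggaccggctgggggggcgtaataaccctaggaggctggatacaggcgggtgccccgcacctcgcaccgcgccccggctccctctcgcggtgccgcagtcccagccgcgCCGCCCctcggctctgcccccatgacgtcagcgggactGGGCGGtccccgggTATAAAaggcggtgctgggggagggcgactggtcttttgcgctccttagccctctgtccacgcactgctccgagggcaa
Tubb4b, chr2:25224653-25224952, minus strand: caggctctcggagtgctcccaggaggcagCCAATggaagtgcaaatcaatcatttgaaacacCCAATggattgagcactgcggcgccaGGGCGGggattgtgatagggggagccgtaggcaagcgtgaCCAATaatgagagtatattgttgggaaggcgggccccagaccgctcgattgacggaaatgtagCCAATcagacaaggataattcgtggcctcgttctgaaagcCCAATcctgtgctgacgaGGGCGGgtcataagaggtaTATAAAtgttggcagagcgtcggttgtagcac
Tuba4a, chr1:75219245-75219544, minus strand: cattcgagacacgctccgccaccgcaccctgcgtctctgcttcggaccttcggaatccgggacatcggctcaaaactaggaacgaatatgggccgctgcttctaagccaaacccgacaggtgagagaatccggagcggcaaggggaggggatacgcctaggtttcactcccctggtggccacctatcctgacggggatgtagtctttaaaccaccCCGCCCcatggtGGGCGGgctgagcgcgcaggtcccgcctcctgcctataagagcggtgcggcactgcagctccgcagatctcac
Tubb2a held 1 TATA box and 2 GC boxes, Tubb4b 1 TATA box, 5 CCAAT boxes and 2 GC boxes, and Tuba4a 2 GC boxes. No E-box was found in these 3 windows. A match describes the letters only. The 5 other members whose promoters were searched, none of them separated between the genotypes, held such motifs too. Tubb5 held 1 E-box, 2 CCAAT boxes and 2 GC boxes, Tubb3 1 CCAAT box and 2 GC boxes, Tuba1b 2 GC boxes, Tuba1a 1 CCAAT box and 1 GC box, and Tuba1c 1 CCAAT box. A pair of GC boxes was thus present in separated and in overlapping members.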

How the data were processed

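RNA from frozen, OCT-embedded liver sections was captured on oligo-dT beads and made into Smart-seq2 libraries from 5 Apoe-/- and 4 Mif-2-/-Apoe-/- samples. Reads were checked with FastQC, trimmed with cutadapt and aligned with HISAT2 to mm10, per the labels. The authors deposited whole-number counts per gene on exons, without normalization. The counter and the treatment of reads matching several genes are not given in the sources used here. Samples were grouped by their labels. Of 27179 Entrez identifiers, 25275 matched a RefSeq symbol (GRCm38.p6), and 1 line without an identifier was left out.

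A gene was tested if 3 or more libraries of WT or of DKO had 1 count or more and it was not among the 10 most abundant by mean CPM. The remaining 16860 genes were fitted with edgeR 4.0.16 (quasi-likelihood, TMM, Benjamini-Hochberg, threshold 0.05) in R 4.3.3. A standard error is the size of the log2 fold change over the root of the F statistic. DESeq2 1.42.0 was the other tool. Levels are CPM on TMM library sizes, which count only the genes tested, divided by transcript length where genes are compared. Likeness used log2(CPM + 0.5). Transcripts and the 100-base windows came from GENCODE M21, with coordinates of GRCm38, read with Biopython 1.88. Code was tested on simulated data. A count of 3, scaled by the total counts of each library without TMM, corresponds to 0.279 to 1.29 CPM, and covers counting error only. The TMM library sizes used for the levels give other values. On them, 1 count of Tubb2b was 0.134 CPM in WT replicate 2, and 2 counts were 1.14 CPM in DKO replicate 2.

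The members and gene lists were chosen with earlier results of these data known. All members are named, and of each companion list the genes called by edgeR, the 2 with the highest mean level and the 2 with the smallest p. Alternatives covered scaling, filters, abundant genes, gene classes, a covariate, a replicate block, DESeq2, length and each library left out. Some sequences are not reported here.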

Additional observations from a re-analysis of the deposited data

Results flagged for a closer look

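In 46 groups of members' levels and shares, 2 held a library far from the others, where chance flags about 1 group in 20, so this is no more than chance gives. Both were in WT replicate 5 and in the alpha pool. Tuba4a made up 95.5% of the pool there, against 99% or more in the other WT libraries. Tuba1b made up 2.71%, against at most 0.557% in the others, on 34 counts. The 2 shares belong to 1 sum, so they are not independent.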

How the results depend on the processing

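The log2 fold change of Tubb2a was between 2.89 and 3.37 in 20 alternatives, and those of Tubb4b and Tuba4a were between 1.63 and 2.15 and between 1.32 and 1.86 in 19. Tubb3, Tubb5 and Tuba1c kept their sign in all of theirs, and Tubb2b, Tubb6, Tuba1a and Tuba1b changed sign in 1, 3, 4 and 6. The Tubb2a share of the beta pool differed by 22 to 24.8 percentage points when each library was left out. The log2 ratios of the summed beta and alpha levels were 1.76 to 2.08 and 1.31 to 1.70 when each library was left out. With TMMwsp scaling they were 2.10 and 1.71.

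The number of genes called moved far more, and the cause was not tested. With TMM, 10 genes were higher in WT and 12 in DKO. TMMwsp gave 18 and 12 and moved the median over all tested genes (log2 fold change) from -0.17 to 0.00, filterByExpr gave 19 higher in WT, and the share of the 10 most abundant genes as a covariate gave 21. DESeq2 gave 345 and 379, with 1 companion gene in each direction. Leaving out 1 library gave 3 to 201 higher in WT and 6 to 61 higher in DKO, with the most without DKO replicate 2, and 74 and 52 without WT replicate 5. Companion genes called as higher in WT numbered 0 to 1 in those fits, the 1 being without DKO replicate 2, and those higher in DKO 0. Without WT replicate 5 and DKO replicates 1 and 3, an alternative chosen after seeing the data as was the length in unique windows, 5 and 6 were called.

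A replicate block on the libraries with shared numbers, which leaves out WT replicate 5, gave 299 genes higher in WT and 206 higher in DKO, with 1 companion gene higher in WT, and Tubb4b and Tuba4a among the genes called beside Tubb2a. The numbers were not taken as pairs: the deviations of same-numbered libraries correlated at 0.14, -0.02, 0.01 and -0.03, and not every library correlated best with its own number. The total of 2318148 counts in DKO replicate 2 limits the members with few counts most.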
